A study of Mus musculus with 4 samples.

Results

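The clustered protocadherin genes of mouse chromosome 18 were described across 4 ATAC-seq libraries. They were taken as all RefSeq genes of that chromosome whose symbol begins with Pcdha, Pcdhb or Pcdhg, which gave 58 members, 14 alpha, 22 beta and 22 gamma, beside 21631 protein-coding genes on the autosomes and X. One member, Pcdhgb8, is listed as a transcribed pseudogene. All peaks from 20 kb before the first member to 20 kb past the last one (mm10, chr18:36910285-37861873) were used. There were 52 of 133235 peaks in this window in the intermediate, 57 of 132875 in iPSC, 106 of 129533 in ESC and 63 of 157212 in MEF.

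Clustered protocadherins are cell surface adhesion proteins of the cadherin superfamily, best known from neurons, where each cell uses its own small choice of members and so carries an identity that it can tell from that of its neighbours. Each alpha or gamma member has its own promoter and a large variable first exon, which is spliced to constant exons shared by its whole cluster, while beta members are single-exon genes with no shared exons. Most alpha and gamma members and nearly all beta members, called alternate here, are chosen at random by promoter. The C-type members Pcdhac1, Pcdhac2, Pcdhgc3, Pcdhgc4 and Pcdhgc5 are used far more evenly by neurons. The choice is known to involve DNA methylation of the promoters, the architectural protein CTCF, cohesin and distant enhancers, among them HS5-1 downstream of the alpha cluster and a set downstream of the gamma cluster.

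The intermediate is the cell population obtained at day 9 of OSKM trans-differentiation towards neural stem cells. OSKM stands for the reprogramming factors Oct4, Sox2, Klf4 and Myc. It is of strain B6/129 with Rosa26-TdTomato and Col1a-OSKM transgenes and a Nanog-CreER reporter, was given doxycycline, 4-hydroxytamoxifen and 0.5 µM JAK1 inhibitor, was sorted as tdTomato positive, which marks past activity of the Nanog-driven Cre, and is labelled as free of MEF feeders. The source field of its label gives day 6. Induced pluripotent stem cells (iPSC) carry the strain and transgene label A12 (Mbd3 flox/-), with a floxed allele and a lost allele of Mbd3, a subunit of the NuRD repressor complex. Embryonic stem cells (ESC) are of the line v6.5. Mouse embryonic fibroblasts (MEF) carry the same A12 (Mbd3 flox/-) label as iPSC. Each group is 1 library of 50000 cells, so there was no replicate check and no test between libraries, and strain differs by label in every comparison but that of iPSC with MEF. Intervals are Wilson 95% intervals over genes or regions and cover counting error only.

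The lists hold peaks with a whole-number height that nothing in the files scales to library size, and read depth is unknown. Heights of different libraries are therefore given side by side without a comparison of size, and each height is also given by the share of peaks in its own list that are lower. Closed is shorthand for having no listed peak, which is not a measurement of inaccessible DNA. In a mixed cell population, fewer open cells and less signal per cell cannot be told apart. Reads from stretches that members share can fall on any of them, and how the processing placed such reads is not given in the sources used here, so a peak at 1 member of a set of close paralogs is uncertain. Of 8 pluripotent markers, 6 had a start peak in the intermediate, 8 in iPSC, 8 in ESC and 0 in MEF. Of 8 fibroblast markers, 2 had one in the intermediate, 4 in iPSC, 5 in ESC and 8 in MEF. Either end was taken for 3 of the pluripotent and 2 of the fibroblast markers. The fibroblast genes Col3a1, Col6a3 and Postn had one in MEF alone.

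ESC held more peaks across the clusters than any other library, although its list was the shortest. The window held 5.46 peaks per 100 kb in the intermediate, 5.99 in iPSC, 11.1 in ESC and 6.62 in MEF. Over the autosomes and X the lists held 5.10, 5.09, 4.96 and 6.02 peaks per 100 kb in the same order of libraries, and over chromosome 18 they held 4.47, 5.44, 4.82 and 5.71. By peaks as listed, ESC thus had the lowest density of the 4 over the genome and the highest in the window. Accessible bases in the window were also most in ESC, with 23065 bp in peaks in the intermediate, 28240 bp in iPSC, 51687 bp in ESC and 27678 bp in MEF. Per 100 kb these were 2420, 2970, 5430 and 2910 bp, against 2500, 2760, 2600 and 2840 bp over the autosomes and X. After peaks at most 10 bp apart in a list had been joined, the window held 27 stretches in the intermediate, 37 in iPSC, 60 in ESC and 27 in MEF. These were 2.84, 3.89, 6.31 and 2.84 per 100 kb, against 2.74, 3.23, 2.85 and 3.07 over the autosomes and X. By bases and by joined stretches, the intermediate and not ESC was thus lowest over the genome.

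**Figure D1:**
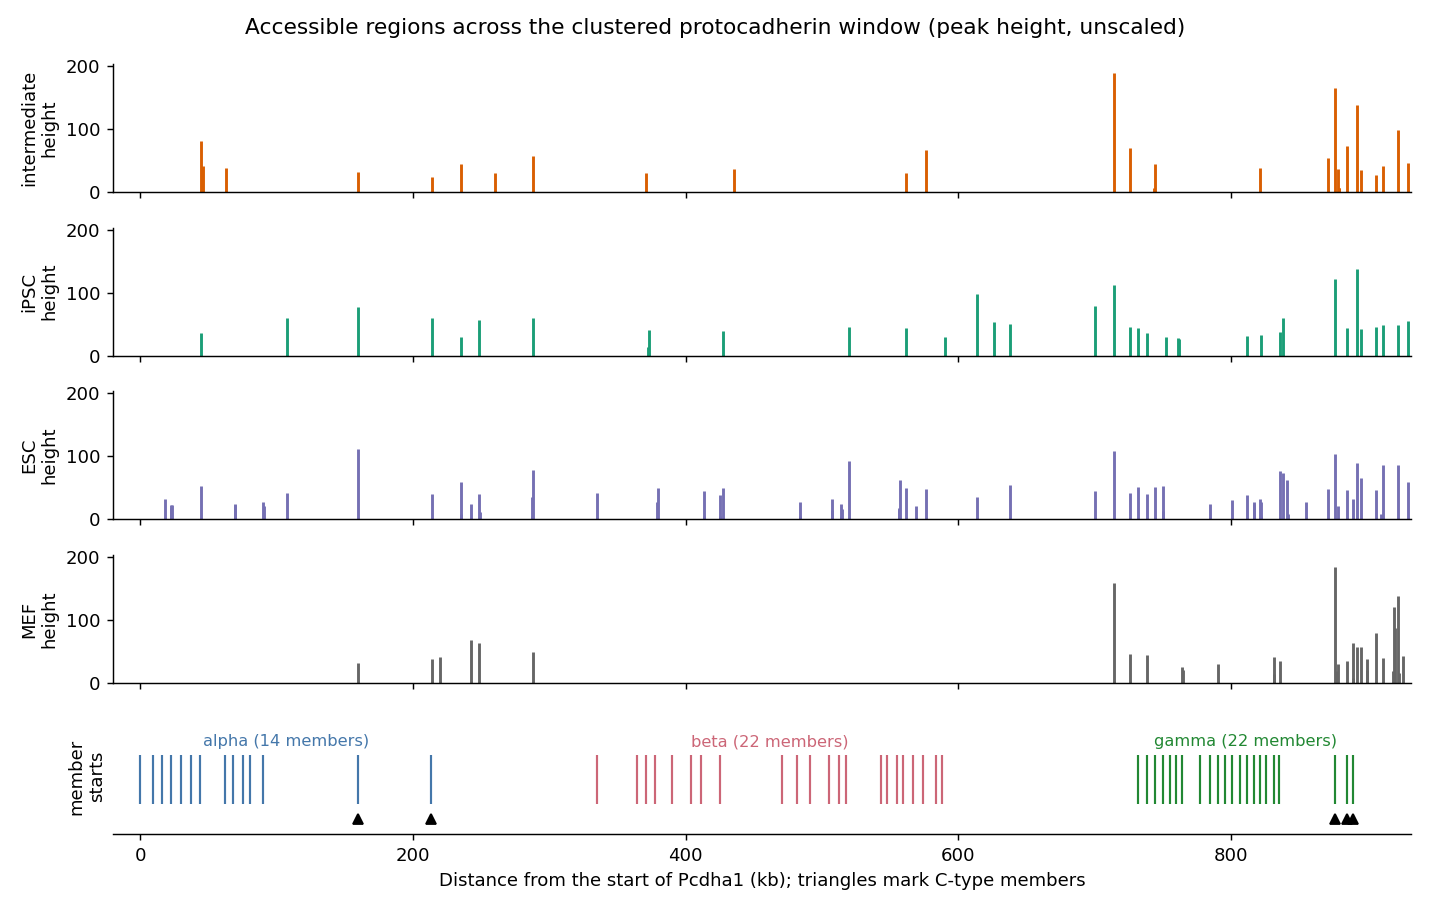
Accessible regions by distance from the start of Pcdha1 in kb, with the tallest unscaled peak height of each library on the y axis, and member starts below. ESC peaks run through all 3 clusters, whereas MEF has none over the beta cluster and the 3′ end of the gamma cluster is occupied in every library.

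The gamma cluster was the densest in every library, and the beta cluster had no peak in MEF. The gamma cluster (chr18:37661775-37841873) held 22 peaks in the intermediate, 22 in iPSC, 41 in ESC and 35 in MEF, or 12.2, 12.2, 22.8 and 19.4 per 100 kb. The alpha cluster (chr18:36930285-37188897) held 9, 12, 24 and 8 peaks in that order, or 3.48, 4.64, 9.28 and 3.09 per 100 kb. The beta cluster (chr18:37264998-37521419) held 8 peaks in the intermediate, 8 in iPSC, 24 in ESC and 0 in MEF. The alpha and beta clusters exceeded the genome density of their own list in ESC alone. The 20 kb before Pcdha1 held no peak in any library.

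**Figure D2:**
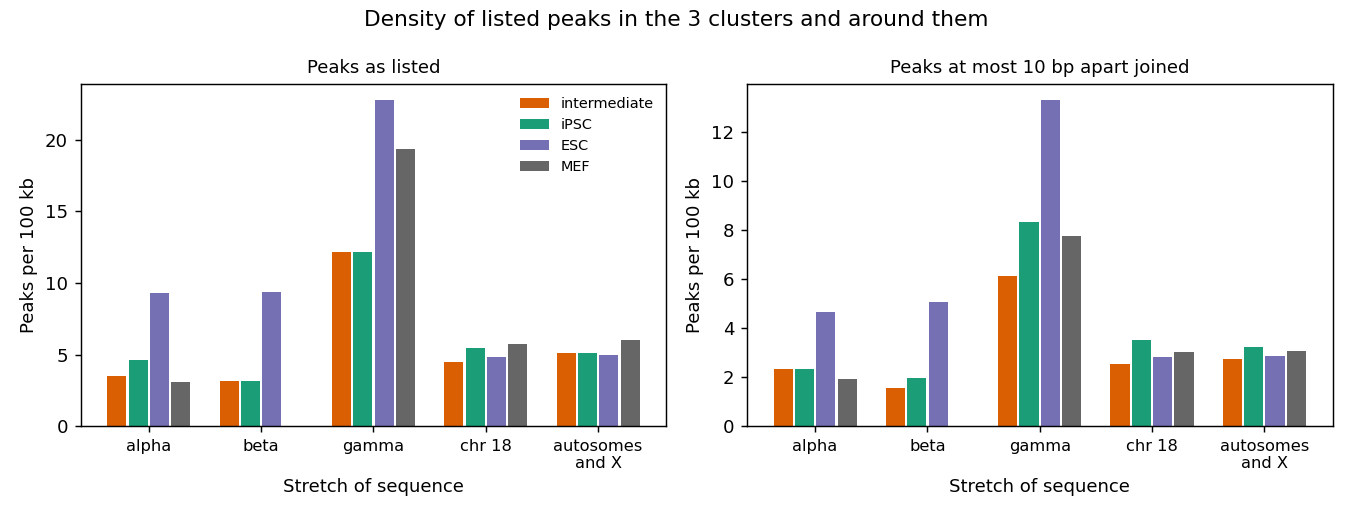
Peaks per 100 kb in each cluster, over chromosome 18 and over the autosomes and X, as listed (left) and with peaks at most 10 bp apart joined (right). The gamma bars are the tallest of every library, and ESC is highest in all 3 clusters and not over the genome.

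A peak within 1 kb of the gene start, called a start peak, was less frequent at members than at genes in general. Of the 58 members, 9 had one in the intermediate, 15.5% (8.38 to 26.9), against 59.3% of 17274 other protein-coding genes with a known strand. In iPSC 10 members had one, 17.2% (9.64 to 28.9), against 62.4% of the other genes. In ESC 20 members had one, 34.5% (23.6 to 47.3), against 64.3%. In MEF 10 members had one, 17.2% (9.64 to 28.9), against 60.9%. In total 33 members had a start peak in no library, and 4 had one in all 4, where 29.4% and 51.9% of other protein-coding genes did. A start peak in ESC alone was listed for 8 of the 58 members, against 217 of the 17274 other genes, 1.26%. The 33 without any comprise 8 alpha members, 19 beta members and 6 gamma members.

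The 4 members with a start peak in all libraries were C-type genes. They were Pcdhac1, Pcdhac2, Pcdhgc3 and Pcdhgc4, and the remaining C-type member Pcdhgc5 had start peaks in ESC and MEF. Start peaks were thus listed for 4 of 5 C-type members in the intermediate, 4 in iPSC, 5 in ESC and 5 in MEF, 80.0% (37.6 to 96.4) in the intermediate and in iPSC and 100% (56.6 to 100) in ESC and in MEF. Of the 53 other members, 5 had a start peak in the intermediate, 6 in iPSC, 15 in ESC and 5 in MEF.

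**Figure D3:**
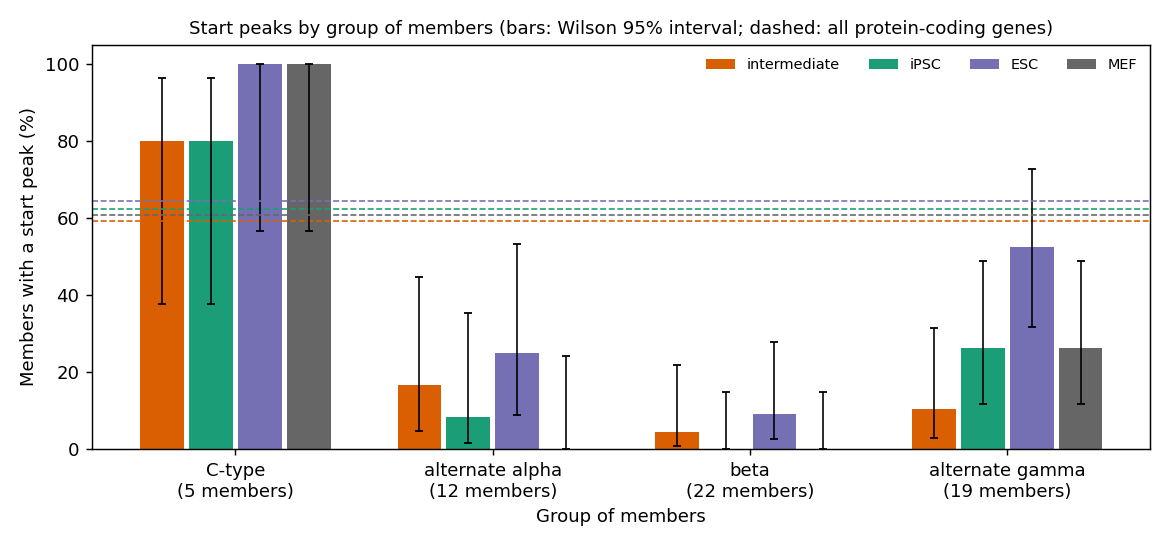
Percentage of members with a start peak by group of members and library, with Wilson 95% intervals, and the percentage over all other protein-coding genes as dashed lines. C-type members stand at 80.0 to 100% in every library, and beta members at 9.09% or lower.

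Pcdhgc3, whose promoter is known to be used broadly outside neurons as well, had the tallest start peak of all members in the intermediate, iPSC and MEF. Its heights were 164 for the intermediate, 122 for iPSC, 103 for ESC and 184 for MEF, taller than 96.2%, 90.5%, 91.3% and 97.7% of the peaks in those lists. The region lay at chr18:37805771-37806980, with the tallest summit of each library 45 to 120 bp before the start. In ESC the start peak of Pcdhac1 was taller. Pcdhac1 had heights of 31 for the intermediate, 77 for iPSC, 111 for ESC and 32 for MEF, taller than 44.7%, 79.9%, 92.4% and 52.7% of each list. Its tallest summits lay within 20 bp of each other in all 4 libraries, 141 to 161 bp before the start. Within their own lists the Pcdhac1 peaks of iPSC and ESC therefore ranked high, and those of the intermediate and MEF near the middle.

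Pcdhac2, Pcdhgc4 and Pcdhgc5 had no start peak taller than that of Pcdhgc3 in any library. Pcdhac2 had heights of 24 for the intermediate, 60 for iPSC, 41 for ESC and 39 for MEF, in a stretch of 2010 bp divided into several peaks. Pcdhgc4 had heights of 72 for the intermediate, 43 for iPSC, 47 for ESC and 36 for MEF, with these summits 251 to 346 bp after the start. Pcdhgc5 had a height of 32 in ESC and 64 in MEF, 141 and 51 bp before the start, and no start peak in the intermediate or iPSC.

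**Figure D4:**
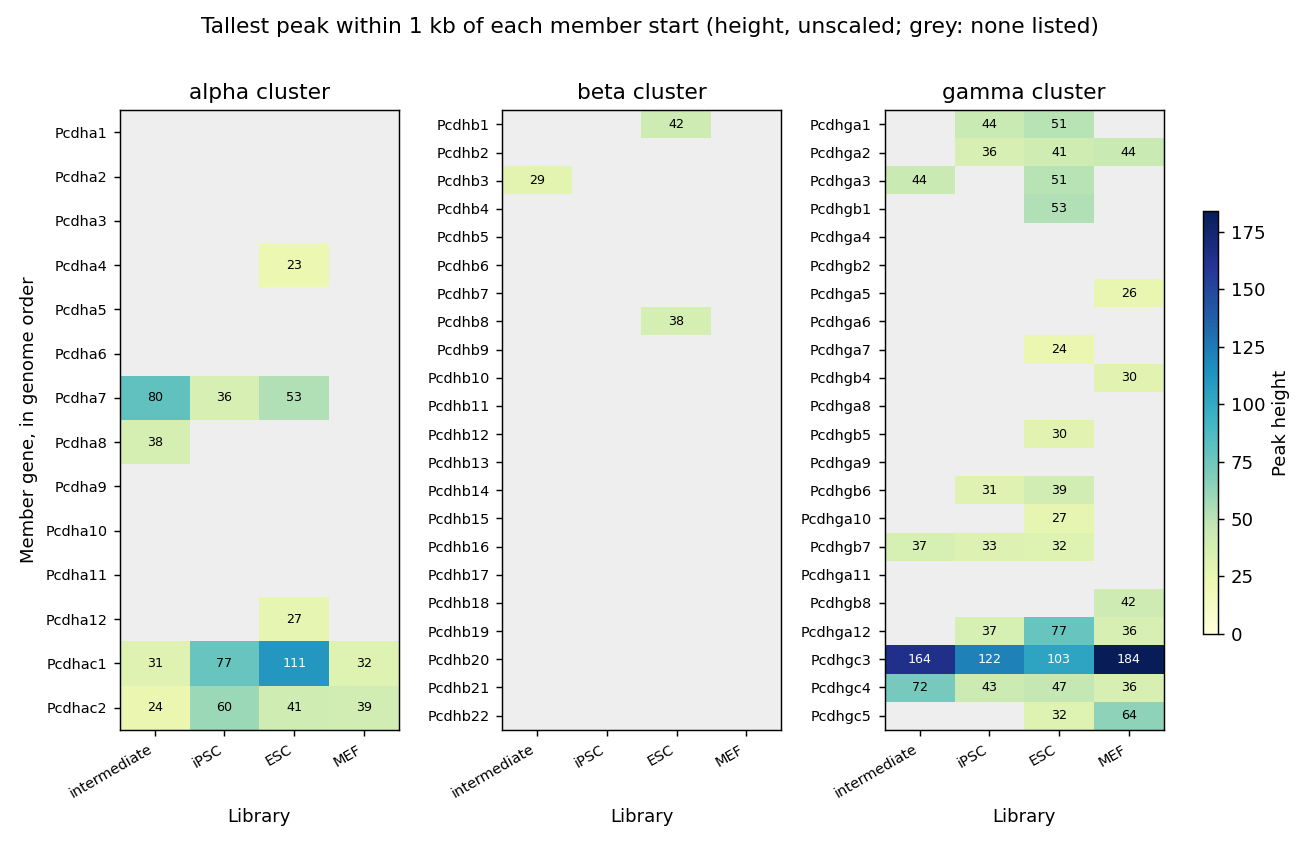
Tallest peak within 1 kb of each member start, in genome order from top to bottom, with the unscaled height in each cell and grey for no listed peak. The rows of Pcdhac1, Pcdhac2, Pcdhgc3 and Pcdhgc4 are filled in all libraries, and all but 3 rows of the beta cluster are empty.

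Among the 12 alternate alpha members, those with a start peak numbered 2 for the intermediate, 1 for iPSC, 3 for ESC and 0 for MEF. Pcdha7 was the one with a start peak in more than 1 library, with heights of 80 for the intermediate, 36 for iPSC and 53 for ESC and none for MEF. Its tallest start summits lay 554 to 609 bp after the start, inside the gene. The peak of the intermediate was the tallest of the whole alpha cluster in that library and taller than 84.7% of its list, and the intermediate had a further peak of height 41 at 2.23 kb after the start. The start of Gm38667, listed as a protein-coding gene that runs from here to the end of the gamma cluster, is next to that of Pcdha7. Pcdha8 had a start peak in the intermediate alone, of height 38. Pcdha4 and Pcdha12 had one in ESC alone, of heights 23 and 27, both in the lower part of the ESC list. Pcdha1, the first member, had none.

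Among the 19 alternate gamma members, start peaks were listed for 2 in the intermediate, 10.5% (2.94 to 31.4), 5 in iPSC, 26.3% (11.8 to 48.8), 10 in ESC, 52.6% (31.7 to 72.7), and 5 in MEF, 26.3% (11.8 to 48.8). Each share was below that of other genes in its library, 59.3% in the intermediate, 62.4% in iPSC, 64.3% in ESC and 60.9% in MEF. The ESC interval holds 64.3%, but the intervals treat neighbouring members as independent and do not compare libraries. The alternate starts of MEF were partly those of other members. Pcdhga5, Pcdhgb4 and the pseudogene Pcdhgb8 had a start peak in MEF alone, with heights of 26, 30 and 42. Pcdhgb1, Pcdhga7, Pcdhgb5 and Pcdhga10 had one in ESC alone, with heights of 53, 24, 30 and 27. No alternate member had a start peak in all libraries.

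Start peaks shared by libraries were at 6 alternate gamma members. Pcdhga12 had heights of 37 in iPSC, 77 in ESC and 36 in MEF, and Pcdhga2 had 36 in iPSC, 41 in ESC and 44 in MEF. Neither had a start peak in the intermediate. Pcdhgb7 had heights of 37 for the intermediate, 33 for iPSC and 32 for ESC, though the iPSC summit lay 816 bp after the start and that of the intermediate 71 bp after it. Pcdhga1, the first gamma member, had 44 in iPSC and 51 in ESC, Pcdhgb6 had 31 and 39 in the same libraries, and Pcdhga3 had 44 in the intermediate and 51 in ESC. The tallest start summits at Pcdhga1, Pcdhga2 and Pcdhga3 were within 85 bp of the start in each of these libraries.

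Beta members had few start peaks in any library. Pcdhb3 had one in the intermediate, of height 29, and Pcdhb1 and Pcdhb8 had one in ESC, of heights 42 and 38. In iPSC and MEF there were 0 of 22, with an upper bound of 14.9%. Pcdhb22, the last beta member, had none.

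Most ESC peaks of the beta cluster lay inside the genes and not at their starts. From 1 to 3 kb after the start, a window set after the data had been seen, a summit was listed for 2 of 22 beta members in the intermediate, 5 in iPSC, 11 in ESC and 0 in MEF. The percentages were 9.09% (2.53 to 27.8), 22.7% (10.1 to 43.4), 50.0% (30.7 to 69.3) and 0 (upper bound 14.9%). Over the other protein-coding genes they were 20% in the intermediate, 18.1% in iPSC, 20.7% in ESC and 23.8% in MEF. The ESC share of beta members was above that of other genes in ESC, and the MEF share was below that of other genes in MEF. The window was chosen for this pattern, so these values describe it and do not test it.

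The positions inside the beta genes were close between members in iPSC and ESC. The tallest such summit of each member lay 1.98 to 2.40 kb after the start in ESC (median 2.13 kb, 11 members) and 2.00 to 2.35 kb in iPSC (median 2.19 kb, 5 members), and all of them lay within the gene. Beta genes are 2.34 to 5.27 kb long. In the intermediate the 2 members were Pcdhb18 at 2.15 kb and Pcdhb20 at 2.85 kb, with heights of 29 and 67. The tallest beta peak of ESC and of iPSC was the one in Pcdhb14, of height 46 in iPSC and 93 in ESC at 2.28 and 2.26 kb after the start. It was taller than 58.6% of the iPSC list and 89.6% of the ESC list. Pcdhb18 was the one beta member with such a peak in 3 libraries, with heights of 29 for the intermediate, 43 for iPSC and 50 for ESC. Of 24 ESC summits within the cluster, 23 lay inside a beta gene, as did 8 of 8 in iPSC and 7 of 8 in the intermediate. The share of the cluster that beta genes cover was not computed beside these counts.

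**Figure D5:**
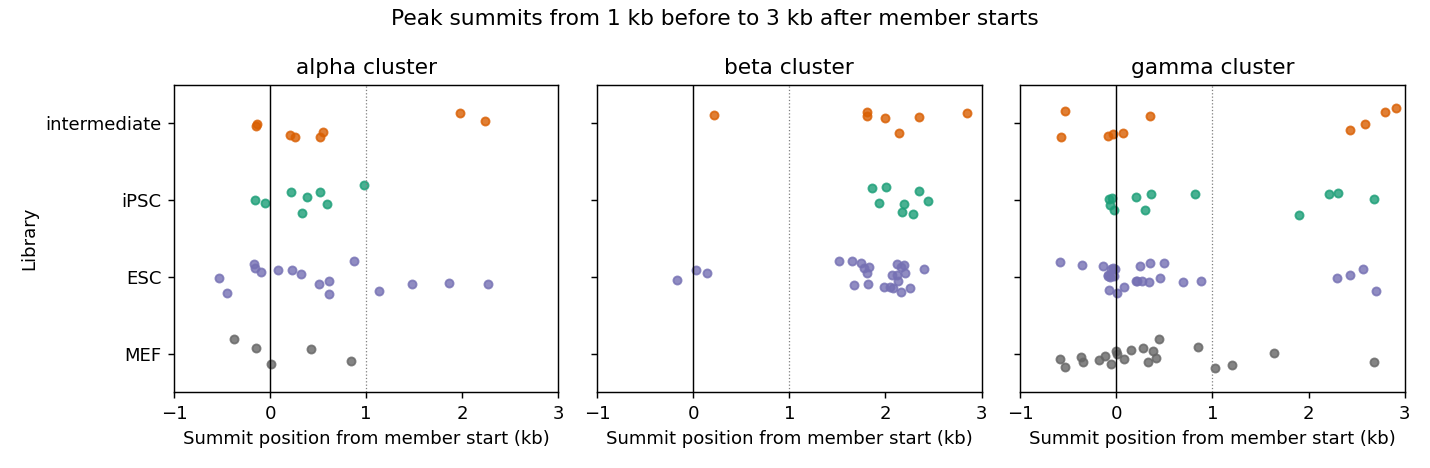
Peak summits from 1 kb before to 3 kb after member starts, in kb, for each cluster and library, with small vertical scatter and the 1 kb limit dotted. Beta summits of ESC and iPSC gather near 2 kb after the start, gamma summits gather at the start, and MEF has no beta summit.

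By their medians, alpha and gamma summits lay nearer to the start. Over the same 4 kb, the median position of alpha summits was 391 bp after the start in the intermediate (8 summits), 358 bp in iPSC (8), 416 bp in ESC (16) and 12 bp in MEF (5). For gamma members it was 208, 330, 209 and 149 bp after the start, over 10, 12, 27 and 21 summits in the same order of libraries. Several summits of 1 member can belong to a single divided stretch, so these counts are not counts of sites. The alpha medians include C-type members, and all 5 alpha summits of MEF were at Pcdhac1 or Pcdhac2. Summits of alternate alpha members lay 264 to 2234 bp after the start in the intermediate and 214 to 589 bp in iPSC. In ESC they ran from -165 to 2272 bp.

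MEF had no listed peak from chr18:37218631 to 37643700, a stretch of 425 kb in which all 22 beta members start. The longest stretch without a peak in the window was 136 kb in the intermediate, 92.0 kb in iPSC and 61.2 kb in ESC. In the MEF list 542 of 157192 spaces between neighbouring peaks on the same chromosome were at least as long as this one, so such stretches occur elsewhere too.

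All 10 members with a start peak in iPSC had one in ESC, which is 50.0% of the 20 in ESC. Of other protein-coding genes with a start peak in iPSC, 96.5% had one in ESC. Of the 9 in the intermediate, 6 were among those of iPSC, 7 among those of ESC and 4, all of them C-type members, among those of MEF. Of other genes with a start peak in the intermediate, 93.6% had one in iPSC, 95.7% in ESC and 91.7% in MEF. Compared with MEF, ESC had start peaks at 13 further members of 58, against 1202 of 17274 other protein-coding genes, 6.96%. ESC lacked 3 of the 10 members with a start peak in MEF, against 628 of 10528 such other genes, 3.64% of all 17274. The intermediate had 5 further members, against 4.91%, and lacked 6 of the 10, against 1140 of the 10528, 6.60% of all. For iPSC 4 were further, against 6.78%, and 4 of the 10 were lacking, against 924 of the 10528, 5.35% of all. Of members 17.2% had a start peak in MEF, against 60.9% of other genes, so a larger share of members could be further. All members lacking against MEF were gamma genes, but so were 8 of the 10 members with a start peak in MEF. The rest were 2 alpha and 0 beta members, so no beta member could be lacking.

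Merging overlapping peaks (1 bp or more) of the 4 lists gave 112 regions across the window. Of these, 17 were open in the intermediate and closed in MEF, 15.2% against 25.1% of the 256632 regions of all chromosomes. In iPSC there were 21, 18.8% against 26.4%. In ESC there were 60, 53.6% against 20.9%. Regions open in MEF and closed elsewhere were 23 for the intermediate, 20.5% against 35.8%, 21 for iPSC, 18.8% against 35.8%, and 18 for ESC, 16.1% against 35.4%. These shares depend on each other, since the many ESC regions enlarge the total of the window.

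More than the usual share of ESC regions were open in ESC alone. These were 42 of 78, 53.8% (42.9 to 64.5), against 26.1% of ESC regions over all chromosomes. The corresponding values were 9 of 30 in the intermediate, 30.0% (16.7 to 47.9) against 52.0%, 7 of 36 in iPSC, 19.4% (9.75 to 35.0) against 38.3%, and 18 of 36 in MEF, 50.0% (34.5 to 65.5) against 70.9%. The size of the ESC share depended on the peaks counted. After joining, 21 of 57 ESC regions were open in ESC alone, 36.8% against 17.3% over all chromosomes. With the taller 50% of each list, 12 of 45 were, 26.7% against 18%, a smaller difference for which no interval was taken. Several of the regions in ESC alone had a height of 6, near the list minimum of 5. In the beta cluster 18 of 22 ESC regions were in ESC alone, or 9 of 13 after joining, and in the alpha cluster 11 of 18, or 5 of 12 after joining. The gamma cluster had a lower share, 11 of 28, or 6 of 23 after joining, and the gap between beta and gamma had 0 of 5. In 14 regions both pluripotent libraries had a peak where MEF did not. The intermediate held 4 of them, 28.6% (11.7 to 54.6), an interval that holds the 35.8% over all chromosomes. The 4 include the regions at Pcdha7 and inside Pcdhb18.

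Regions open in all 4 libraries numbered 12, 10.7% against 7.03% of regions over all chromosomes, and lay at C-type starts and outside the stretches of alternate members. At member starts there were 4, those of Pcdhac1, Pcdhac2, Pcdhgc3 and Pcdhgc4. Between the alpha and beta clusters, 46.8 kb before Pcdhb1, the region chr18:37217711-37218680 had heights of 56 for the intermediate, 60 for iPSC, 78 for ESC and 50 for MEF. It is the only region of that gap open in more than 1 library. HS5-1 is known to lie in the sequence downstream of the alpha cluster, but its position is not given in the sources used here and the region was not matched to it.

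The 3′ end of the gamma cluster, past the start of Pcdhgc5, held 4 regions open in all libraries. The first, at chr18:37822041-37823300, 3.12 kb after the start of Pcdhgc5, had heights of 138 for the intermediate, 137 for iPSC, 89 for ESC and 58 for MEF, and it was the tallest gamma peak of iPSC. The others lay 5.75, 16.8 and 22.2 kb after that start. The last, at chr18:37840261-37843330, reaches over the end of the cluster. A further one at chr18:37851701-37853181 lay past the cluster within Diaph1, a formin gene that regulates actin, with heights of 98 for the intermediate, 48 for iPSC, 87 for ESC and 138 for MEF. Beside it MEF had peaks of its own with heights up to 121, and 5 of the 7 regions of the downstream flank were open in MEF alone. Of the 6 flank regions open in MEF they are 83.3%, against 70.9% of MEF regions over all chromosomes. Several of these flank regions are parts of 1 divided stretch, and after joining 2 of 4 were open in MEF alone. That is 2 of the 3 open in MEF, against 56.9% of joined MEF regions over all chromosomes.

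Between the beta and gamma clusters a set of regions was open in both pluripotent libraries. The region at chr18:37543461-37544520, 25.6 kb after the start of Pcdhb22, had heights of 97 in iPSC and 36 in ESC. That at chr18:37567841-37568900 had 50 in iPSC and 55 in ESC, and that at chr18:37630131-37631470 had 78 in iPSC and 45 in ESC. None of them had a peak in the intermediate or MEF. In the same gap Taf7, a general transcription factor gene, had a peak at an end with heights of 188 for the intermediate, 112 for iPSC, 108 for ESC and 159 for MEF, and Slc25a2, a mitochondrial carrier gene, had none. A region 5.99 kb before Pcdhga1 was open in all libraries, with heights of 69, 45, 42 and 46 in that order.

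Within the alpha cluster, regions away from starts varied between libraries. The region at chr18:37165331-37165950, 22 kb after the start of Pcdhac2, had heights of 44 for the intermediate, 29 for iPSC and 59 for ESC and none for MEF. A region 28.9 kb after that start had 24 in ESC and 68 in MEF, the tallest alpha peak of MEF. A region 34.9 kb after it had 57 in iPSC, 41 in ESC and 64 in MEF. A region 17.8 kb after the start of Pcdha12 had 60 in iPSC and 42 in ESC alone.

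Protocadherin genes outside the clusters were counted in the same way. Of 12 such genes, 9 had a start peak in the intermediate, 11 in iPSC, 10 in ESC and 9 in MEF, where the shares over other protein-coding genes were 59.3%, 62.4%, 64.3% and 60.9%. Where the strand of a listed gene was not known, either gene end was taken, which gives a peak more chances to be found. This was so for 3 of the 12, and of the 9 with a known strand 8, 9, 8 and 7 had one in the same order of libraries. Pcdh17 had heights of 381 for the intermediate, 487 for iPSC, 257 for ESC and 229 for MEF, and Pcdh8 had 287, 233, 161 and 119 in the same order. Pcdh15, a protein of the hair cells of the inner ear, had 33 for the intermediate, 83 for iPSC and 48 for ESC and none for MEF, and Pcdh12 had none in any library. Hox genes, another set of tandem paralogs, had a start peak in 8 of 22 cases with a known strand in the intermediate, 8 in iPSC, 13 in ESC and 15 in MEF, or 36.4%, 36.4%, 59.1% and 68.2%.

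Genes that act on clustered protocadherin promoters were a further list. Of 24 such genes, 19 had a start peak in the intermediate, 20 in iPSC, 19 in ESC and 18 in MEF, beside the same shares of 59.3%, 62.4%, 64.3% and 60.9% over other genes. Of the 20 with a known strand, 17, 18, 17 and 16 had one. Ctcf had heights of 108 for the intermediate, 99 for iPSC, 143 for ESC and 121 for MEF. Smchd1, a repressor that acts on these clusters, had 126, 215, 141 and 197 in that order, and Dnmt3b, the methyltransferase known to methylate these promoters, had 49, 64, 73 and 58. Dnmt3l, a cofactor of de novo methylation, had 53 in iPSC and 56 in ESC, and no start peak elsewhere. The cohesin subunit gene Rad21 and the methyltransferase gene Dnmt1, which dividing cells use, had none in any library, so a missing start peak is not read here as inaccessible chromatin. Of 13 genes for partners of the proteins, 12 had one in the intermediate and 13 in each of iPSC, ESC and MEF, but either end was taken for 7 of them. Of the 6 with a known strand, 5 had one in the intermediate and 6 in each of the others. Cyfip2, a subunit of the WAVE complex that binds protocadherin tails, had none in the intermediate, 218 in iPSC, 136 in ESC and 29 in MEF.

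Markers of other cell types were counted beside these values, with either end taken for 3 neuron, 1 neural progenitor, 1 epithelial and 3 other markers. Of 9 neuron markers, 6 had a start peak in the intermediate, 7 in iPSC, 7 in ESC and 6 in MEF, and Dcx and Rbfox3 had none in any. Of 8 neural progenitor markers, 6 had one in the intermediate, 8 in iPSC, 8 in ESC and 4 in MEF. Of 6 epithelial markers there were 5, 6, 6 and 2 in the same order, and of 6 markers of macrophages and other cells 1, 2, 1 and 2. Their part in the values of the clusters was not tested.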

How the data were processed

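ATAC-seq, which tags accessible DNA with a transposase, was run on 1 library each of the OSKM intermediate, iPSC, ESC and MEF, amplified for 12 PCR cycles. MACS 1.4.2-1, Bowtie2, CASAVA 1.8.2, Picard and the build mm10 are listed in the submitters' processing notes, which assign no step to any of them; settings were not known. The deposited lists hold, per the file headers, the start, end, summit and height of each peak; height is taken as an unscaled signal, with a minimum of 5 in each list. Neighbouring peaks are often 10 bp apart, so a stretch can count as several peaks. Positions, used as given, were compared with the RefSeq annotation on GRCm38.p6, which has the coordinates of mm10.

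Members were placed on the plus strand from general knowledge. Other genes took their strand from the RefSeq promoter table, and 17274 protein-coding genes with one formed the background. None of the listed genes of chromosome 18 outside the clusters had a known strand. The background may therefore hold few or no genes of the members' own chromosome. Start peaks were peaks within 1 kb of the gene start, and peaks were counted in a cluster by their summits. With 1 library a group no test was run. The members, gene lists and alternatives were chosen with earlier results of these data known. Named are members with a start peak in any library, the C-type, first and last members, those nearest the tallest peak of a cluster, and the listed genes; other values were chosen after they were seen. The alternatives were start windows of 0.5 and 2.5 kb, summits only, joined peaks, equal list lengths, the upper 50% of heights, an overlap of 50% of the shorter peak, added flanks and a height of 25 or more. Counting was tested on simulated lists. Python 3.11.15, pandas 2.3.3 and scipy 1.17.1 were used.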

Additional observations from a re-analysis of the deposited data

How the results depend on the processing

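Of 232 alternative values, 175 were within 1.5 times the value reported and 57 were not. None of those under equal list lengths, an overlap of 50%, a start window of 0.5 kb, summits only or an added flank of 20 kb moved further. With a start window of 2.5 kb, 19 members in iPSC and 32 in ESC had a start peak, the beta counts were 3 (intermediate), 5 (iPSC) and 12 (ESC), and the gamma cluster had 11 in iPSC. That window takes in the peaks inside the beta genes.

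In the taller 50% of each list, start peaks fell to 5 members in iPSC, with 2 alpha in the intermediate, 3 alpha in ESC, 0 beta in the intermediate and 3 gamma in iPSC, and beta summits 1 to 3 kb after the start to 1 in the intermediate. Alpha peaks were then 4 in the intermediate, 5 in iPSC, 7 in ESC and 5 in MEF, beta peaks 2, 4 and 10 in the first 3 of these, and gamma peaks 10, 8, 18 and 16. Regions open against MEF were 13 in iPSC and 29 in ESC, those open in MEF alone of the pair 13 for iPSC and 9 for ESC, and the intermediate held 2 of the pluripotent regions.

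After joining, alpha peaks were 6 in iPSC, 12 in ESC and 5 in MEF, beta peaks 4 (intermediate), 5 (iPSC) and 13 (ESC), and gamma peaks 11 in the intermediate, 24 in ESC and 14 in MEF. Regions open in ESC and closed in MEF were 39, and the reverse 12 for the intermediate, 10 for iPSC and 7 for ESC. At heights of 25 or more, chosen after seeing the data, alpha peaks were 5 in the intermediate and 10 in ESC, beta peaks 4 (intermediate), 5 (iPSC) and 12 (ESC), and gamma peaks 13 in the intermediate, 23 in ESC and 18 in MEF. ESC had the most alpha, beta and gamma peaks under joining, the taller 50% and heights of 25 or more. With the flank of 20 kb added to the gamma cluster, ESC had 45 peaks and MEF 49, the most of the 4 libraries.

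Regions open in 1 library alone were 5 in the intermediate, 21 in ESC and 7 in MEF after joining, and 4 in the intermediate, 2 in iPSC, 12 in ESC and 9 in MEF in the taller 50%.

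No paired analysis was possible because each group has 1 library. Unknown read depth limits every absence of a peak.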
